A study of Mus musculus with 9 samples.

Results

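Notch signalling genes were followed in mouse pluripotent cells in which the secretion of Wnt proteins was left intact or blocked. The genes were 10 Notch ligands, receptors and targets, namely Notch1, Notch2 and Notch3, Dll1, Dll3, Jag1 and Jag2, and Hes1, Hes5 and Hey1. They were taken as probe sets whose only gene symbol on the platform is one of these names. All 10 genes were measured, through 17 such probe sets of the 45101 on the array and among 18193 genes with a probe set of their own. Where a gene had several, its brightest probe set by the 9-array mean stands for it, and the other 7 served as a check.

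RNA was measured on 9 Affymetrix Mouse Genome 430 2.0 arrays, 3 labelled biological replicates in each of 3 groups. The first group was epiblast stem cells (EpiSCs), pluripotent cells that resemble the epiblast after implantation, grown with vehicle. The second was EpiSCs given IWP2, an inhibitor of Porcupine, the enzyme that adds the lipid which Wnt proteins need for secretion. The third was embryonic stem cells (ESCs), which stand for an earlier, naive state. EpiSCs of both groups grew on plates coated with gelatine and FCS, in N2B27 medium with 20 ng/ml Activin A and 12 ng/ml bFGF. ESCs grew on gelatine in N2B27 with 1000 U/ml LIF and 250 ng/ml Wnt3a, and their labels name no other treatment. All cells carry the strain label C57BL/6. The protocol text also speaks of Wnt3a added after IWP2 and of fresh medium 2 h earlier. Cultures of EpiSCs given Wnt3a were not analysed here, and the sources used here do not state the dose or duration of IWP2 or name the lines. Cell type and medium changed together between EpiSCs and ESCs and cannot be told apart.

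Notch receptors are membrane proteins that are cut when a ligand of the Delta or Jagged family on a neighbouring cell binds and pulls on them. The freed intracellular part enters the nucleus, joins the DNA-binding protein RBPJ and a Mastermind coactivator, and turns on genes of the HES and HEY families, which encode repressors. In the early embryo the pathway is best known for somite formation, neurogenesis and the choice between neighbouring cell fates, and its genes are also transcribed in pluripotent cells.

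Markers of the labelled cell types were present. ESCs had less signal than vehicle EpiSCs for all 7 primed epiblast genes and more for all 8 naive genes. The primed genes also differed between the EpiSC groups. With IWP2, 2 of the 7 rose, with log2 differences of 1.37 (Sox3) and 0.69 (Zic2). A further 3 fell, with -2.48 (Fgf5), -2.05 (Cldn6) and -0.59 (Otx2). Of the 8 naive genes, 1 rose and 2 fell with IWP2. In both EpiSC groups the naive genes Zfp42, Nr0b1, Tbx3 and Prdm14 lay below 3.72, the lower quartile of all values. Vehicle cultures also held definitive endoderm and node markers. The summed linear signal of their 8 genes ran from 6273 to 6744 in the vehicle group, from 154 to 165 with IWP2 and from 194 to 206 in ESCs. All 8 fell with IWP2, and Lhx1 and Gsc were below the lower quartile in IWP2-treated EpiSCs and in ESCs. Neural markers (7 genes) summed to 774 to 820, 923 to 1080 and 439 to 485 in vehicle, IWP2 and ESC, and fibroblast markers (8 genes) to 564 to 779, 393 to 468 and 208 to 215. Such sums are led by the brightest genes, with vehicle Nes (mean 8.90) and Col1a2 (8.48). Of the neural genes, 2 rose and 0 fell with IWP2, and 2 were higher and 2 lower in ESCs than with vehicle. Of the fibroblast genes, 2 rose and 3 fell with IWP2, and 1 was higher and 4 lower in ESCs. Of all genes, 16.6% rose and 16.8% fell with IWP2, and 38.7% were higher and 27.9% lower in ESCs. Replicate arrays correlated at 0.997 to 0.998. The 3' minus 5' log2 difference of the actin control, a sign of RNA integrity, was 0.53 to 0.59 with vehicle, 0.64 to 0.69 with IWP2 and 0.64 to 0.66 in ESCs. The part of marker genes or RNA integrity in the differences described here was not tested. In bulk RNA, fewer cells that express a gene and less RNA per cell cannot be told apart.

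Among the receptors, Notch2 and Notch3 had the widest differences of the 10 genes. Notch3 was highest in IWP2-treated EpiSCs and lowest in ESCs, Notch2 was high in both EpiSC groups and low in ESCs, and Notch1 stayed within a narrow range. All values are log2 signals, on which a step of 1 is a 2-fold change, and levels are compared between groups for the same probe set and not between genes.

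**Figure D1:**
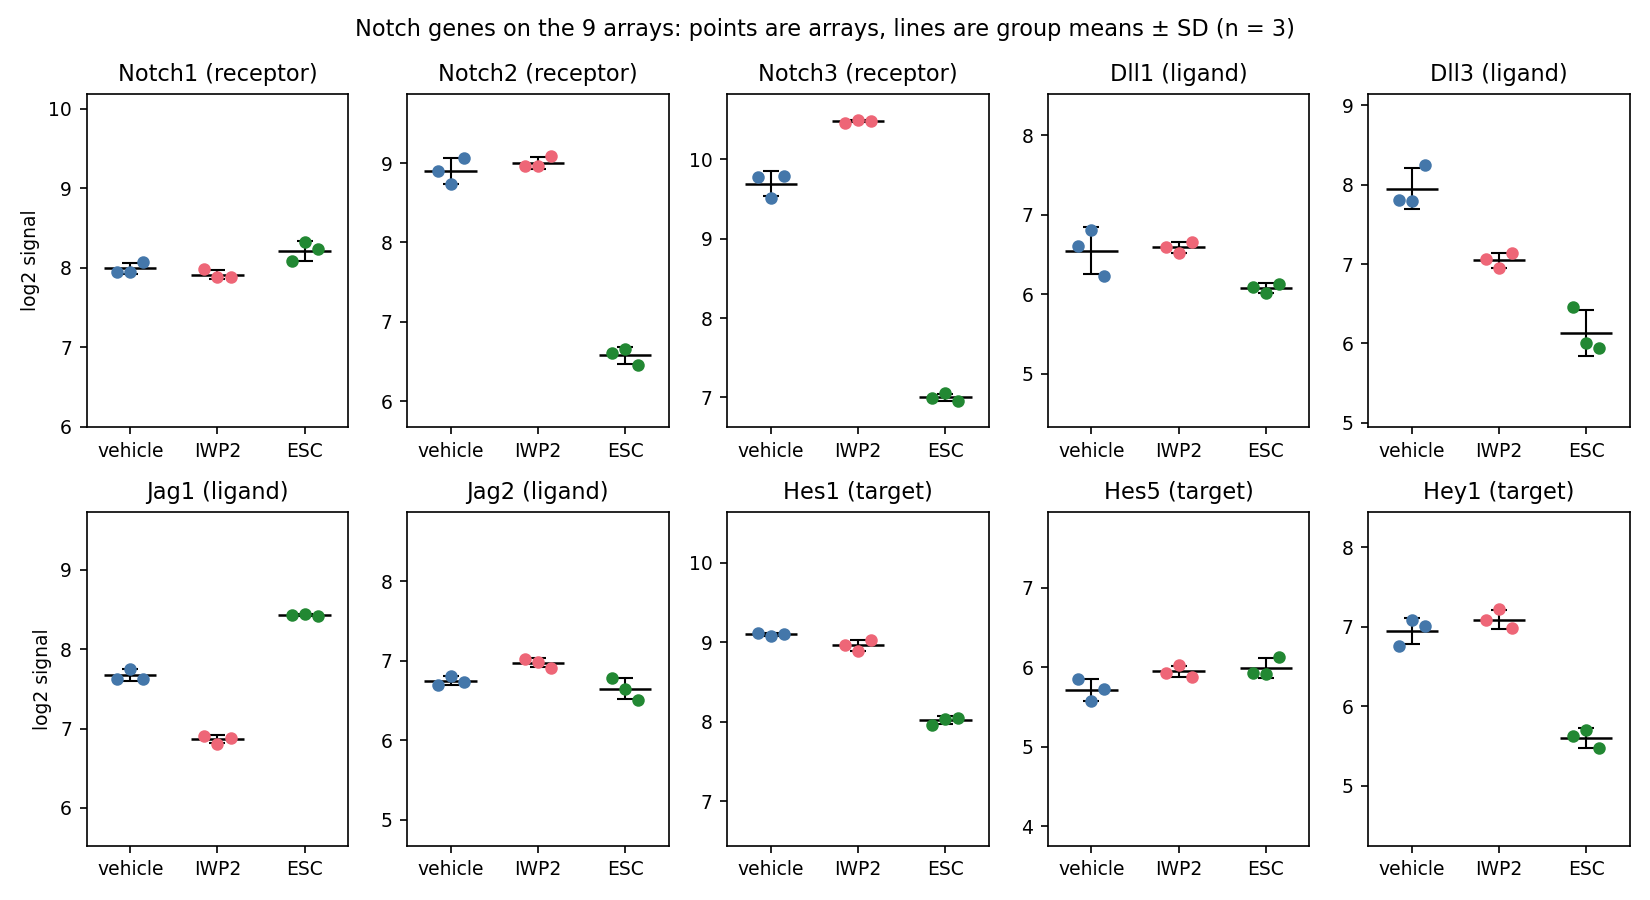
Log2 signal (y axis) of each Notch gene in the vehicle, IWP2 and ESC groups (x axis), with a point for each array and lines for the group mean ± SD (n = 3). Every panel spans the same number of log2 units at its own level. Notch3 separates all 3 groups, from 6.96 on the lowest ESC array to 10.49 on the highest IWP2 array, and Jag1 does so in a different order, with ESCs highest at 8.43.

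Notch3 read 9.78, 9.51 and 9.79 on the 3 vehicle arrays, 10.46, 10.49 and 10.48 on the IWP2 arrays and 6.99, 7.05 and 6.96 on the ESC arrays. The groups did not overlap in any pair, and IWP2 arrays were the highest. The mean was 9.69 ± 0.159 with vehicle and 10.48 ± 0.0187 with IWP2 (SD, n = 3), a rise of 0.78 ± 0.0775 (SE), or 1.72-fold, with a limma adjusted p = 4.68e-05. In ESCs it was 6.46-fold lower than in vehicle EpiSCs, a log2 difference of -2.69 ± 0.0775 (adjusted p = 9.39e-10). Only 3.33% of all genes had a larger absolute difference in that comparison. ESCs were 11.1-fold below IWP2-treated EpiSCs (-3.48 ± 0.0775, adjusted p = 1.52e-10). The other Notch3 probe set gave 0.72 ± 0.11 for IWP2 minus vehicle, -1.61 ± 0.11 for ESC minus vehicle and -2.33 ± 0.11 for ESC minus IWP2, all called (adjusted p of 0.000815, 4.52e-07 and 2.35e-08 over all named probe sets). It is the one left for Notch3 when probe sets whose sequences may match several genes are set aside.

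The stretch just before the RefSeq start of Notch3 is shown because this gene had the largest difference of the 10 between ESCs and EpiSCs and because its letters include both orientations of the N box, the CACNAG motif bound by HES repressors. It holds the 250 bases before the start, at chr17:32166891-32167140 on the minus strand of GRCm38.p6, from RefSeq, with the N box matches in capitals.
Notch3: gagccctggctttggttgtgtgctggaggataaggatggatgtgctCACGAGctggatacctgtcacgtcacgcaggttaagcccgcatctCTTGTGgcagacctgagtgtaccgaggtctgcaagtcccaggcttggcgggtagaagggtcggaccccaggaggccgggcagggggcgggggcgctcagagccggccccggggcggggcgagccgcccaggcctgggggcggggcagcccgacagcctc
The matches begin 204 and 159 bases before the start. An N box on either strand occurred in 36.7% of the 32851 promoter windows of this length in the RefSeq table, and 8.18% held at least 2. The match is a description of letters and says nothing about binding.

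Notch2 read 8.90, 8.74 and 9.06 with vehicle, 8.96, 8.96 and 9.09 with IWP2 and 6.61, 6.66 and 6.46 in ESCs. The vehicle and IWP2 arrays overlapped, and every ESC array lay below every EpiSC array. The IWP2 difference was 0.10, with a 95% interval of -0.10 to 0.30, and was not called (adjusted p = 0.441). ESCs were 5.01-fold below vehicle EpiSCs (-2.32 ± 0.09, adjusted p = 7.64e-09) and 5.37-fold below IWP2-treated EpiSCs (-2.43 ± 0.09, adjusted p = 5.26e-09). A second Notch2 probe set lay close to the floor, at group means of 3.96, 4.06 and 4.31 for vehicle, IWP2 and ESC. It was called in the opposite direction, at 0.35 ± 0.0808 for ESC minus vehicle (adjusted p = 0.00331) and 0.25 ± 0.0808 for ESC minus IWP2 (adjusted p = 0.022). As the mean of both probe sets, the ESC minus vehicle difference was -0.99 and ESC minus IWP2 was -1.09. The lower Notch2 signal in ESCs thus rests on 1 of its probe sets.

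Notch1, a receptor that the mouse embryo needs to develop, read 7.95, 7.95 and 8.07 with vehicle, 7.98, 7.88 and 7.88 with IWP2 and 8.08, 8.32 and 8.23 in ESCs. ESC arrays were slightly above all others, and the EpiSC groups overlapped. The IWP2 difference of -0.08 (95% interval -0.24 to 0.09) was not called (adjusted p = 0.464) and was 0.15 averaged over its probe sets. The median ESC minus vehicle difference was 0.12 over all genes and -0.018 over genes at or above the median signal. For Notch1, ESCs were higher than vehicle EpiSCs by 0.22 ± 0.0738 (adjusted p = 0.0255). That call ended without vehicle replicate 1 (adjusted p = 0.0772), vehicle replicate 2 (0.0712), ESC replicate 2 (0.0962) or ESC replicate 3 (0.0665). Against IWP2-treated EpiSCs the difference was 0.29 ± 0.0738 (adjusted p = 0.00575), and averaging the gene's probe sets gave 0.12 and no call (adjusted p = 0.222). The other Notch1 probe set rose with IWP2, by 0.39 ± 0.116 (adjusted p = 0.0303).

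Among the ligand genes, Jag1 and Dll3 fell with IWP2, Dll1 did not pass the test, and Jag2 passed it narrowly with a small rise. In ESCs, Jag1 was higher and Dll1 and Dll3 lower than in either EpiSC group.

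Jag1, a Jagged-family ligand that activates Notch receptors, read 7.62, 7.75 and 7.62 with vehicle, 6.91, 6.81 and 6.88 with IWP2 and 8.43, 8.44 and 8.42 in ESCs. The 3 groups were apart on every array, in the order ESC, vehicle, IWP2. Its mean was 7.67 ± 0.0744 with vehicle and 6.87 ± 0.0532 with IWP2 (SD, n = 3), so it fell 1.74-fold, with a log2 difference of -0.80 ± 0.0577 (SE, adjusted p = 5.4e-06). ESCs were above vehicle EpiSCs by 0.76 ± 0.0577 (1.7-fold, adjusted p = 1.25e-06) and above IWP2-treated EpiSCs by 1.56 ± 0.0577 (2.95-fold, adjusted p = 5.12e-09). Both other Jag1 probe sets were called in the same directions. They gave -0.30 ± 0.0811 and -0.87 ± 0.093 for IWP2 minus vehicle and 0.80 and 0.86 for ESC minus vehicle.

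Dll3, a divergent Delta-family member known for its role in the presomitic mesoderm and as an inhibitor of Notch within the same cell, read 7.81, 7.79 and 8.25 with vehicle, 7.06, 6.95 and 7.14 with IWP2 and 6.46, 6.00 and 5.94 in ESCs. Levels stepped down from vehicle to IWP2 to ESC without overlap. With IWP2 the signal was 1.86-fold lower, with a difference of -0.90 ± 0.156 (adjusted p = 0.00169), the largest of the 10 genes in this comparison. ESCs were lower than vehicle EpiSCs by 3.52-fold (-1.82 ± 0.156, adjusted p = 3.29e-06) and lower than IWP2-treated EpiSCs by 1.89-fold (-0.92 ± 0.156, adjusted p = 0.000498). Dll3 had no second probe set with a symbol of its own.

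Endoderm and node markers moved in the same comparison as the falls of Jag1 and Dll3 with IWP2. All 8 of them fell, with a median of -4.73, and their part in the falls of the ligands was not tested. ESC arrays, with a sum of 194 to 206 for these markers, held the highest Jag1 and the lowest Dll3 levels. ESCs also differed from EpiSCs in cell type and medium, so their levels do not bear on that part. Presomitic mesoderm markers were low throughout, with summed linear signals of 122 to 133, 127 to 148 and 170 to 177 for 6 genes on vehicle, IWP2 and ESC arrays. The highest group mean among them was 5.70, and Ripply2 was below the lower quartile in every group.

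Dll1, a Delta-family activating ligand, read 6.61, 6.81 and 6.23 with vehicle, 6.60, 6.52 and 6.66 with IWP2 and 6.09, 6.01 and 6.13 in ESCs. Vehicle replicate 3 was the lowest EpiSC array, and ESC arrays were below it. The IWP2 difference of 0.05 had a 95% interval of -0.23 to 0.32 and was not called (adjusted p = 0.813), and was -0.11 without vehicle replicate 3. ESCs were lower than vehicle EpiSCs by 1.39-fold (-0.47 ± 0.124, adjusted p = 0.00728) and lower than IWP2-treated EpiSCs by 1.43-fold (-0.52 ± 0.124, adjusted p = 0.00444).

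Jag2, the other Jagged ligand, read 6.70, 6.81 and 6.73 with vehicle, 7.03, 6.99 and 6.91 with IWP2 and 6.78, 6.65 and 6.51 in ESCs. IWP2 arrays were the highest, and vehicle and ESC arrays overlapped. The rise with IWP2 was 0.23 ± 0.0752 (1.17-fold, adjusted p = 0.0397). It was no longer called without vehicle replicate 1 (adjusted p = 0.114), vehicle replicate 3 (0.0936), IWP2 replicate 1 (0.111), IWP2 replicate 2 (0.1), IWP2 replicate 3 (0.0507) or ESC replicate 2 (0.0538), nor at an adjusted p under 0.01. As the mean of both probe sets the rise was 0.15. ESCs differed from vehicle EpiSCs by -0.10 (95% interval -0.27 to 0.07, adjusted p = 0.262) and from IWP2-treated EpiSCs by -0.33 ± 0.0752 (adjusted p = 0.00333). The second Jag2 probe set gave -0.98 ± 0.1 for ESC minus vehicle (adjusted p = 1.1e-05) and -1.05 ± 0.1 for ESC minus IWP2. The mean of both gave -0.54 for ESC minus vehicle (adjusted p = 5.44e-06) and -0.69 for ESC minus IWP2. Repeated quantile normalization turned the sign of the uncalled ESC minus vehicle value, to 0.06, and brought ESC minus IWP2 to -0.20 (adjusted p = 0.0422).

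**Figure D2:**
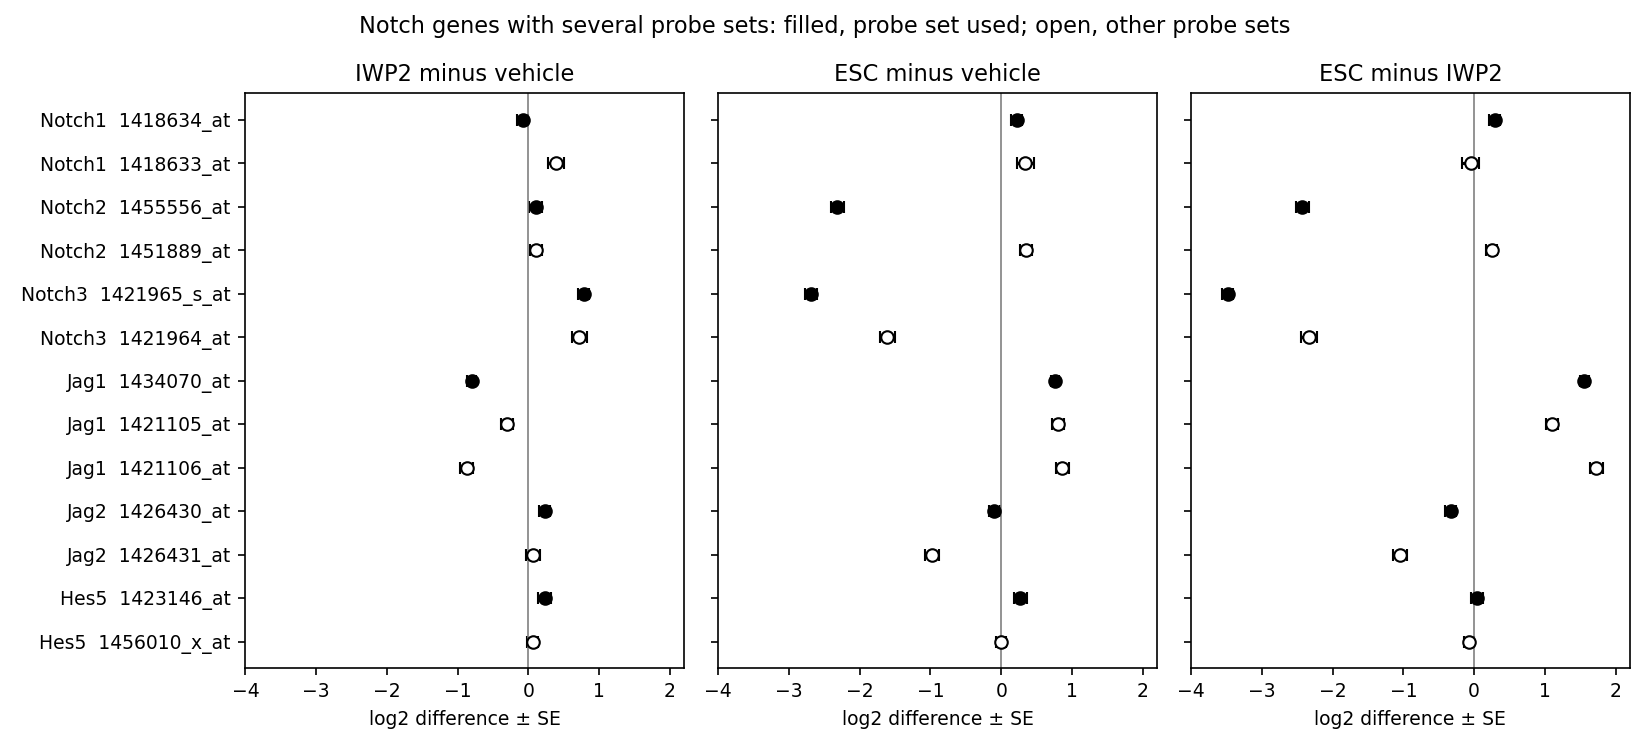
Log2 difference ± SE (x axis) of every probe set of the Notch genes that have more than 1, named on the y axis, in the 3 comparisons. Filled points are the probe sets used, open points the others. Probe sets of Jag1 and Notch3 lie on the same side of 0 in each comparison, whereas those of Notch2 lie on opposite sides in both comparisons with ESCs (-2.32 and 0.35 for ESC minus vehicle).

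Over the 6 genes with several probe sets, 5 of the 7 other probe sets gave the same call as the one used for IWP2 minus vehicle, 4 of 7 for ESC minus vehicle and 5 of 7 for ESC minus IWP2. A call in the opposite direction occurred once in each comparison with ESCs, that of Notch2, and in 0 cases for IWP2 minus vehicle.

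The target genes encode HES and HEY repressors that Notch activity induces in many tissues. None of the 3 was called with IWP2, and Hes1 and Hey1 were lower in ESCs.

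Hes1, the most broadly used Notch target, read 9.12, 9.08 and 9.11 with vehicle, 8.97, 8.89 and 9.03 with IWP2 and 7.96, 8.04 and 8.05 in ESCs. All IWP2 arrays were slightly below all vehicle arrays, and ESC arrays were far below both. The IWP2 difference was -0.14 ± 0.0571 (95% interval -0.26 to -0.01), with an adjusted p of 0.095 over all genes, so it was not called. It was called among genes at or above the median signal (adjusted p = 0.0441), where 5845 of 11006 genes were, and when 32 was added to all linear signals, which damps low values (adjusted p = 0.0292). ESCs were 2.12-fold below vehicle EpiSCs (-1.09 ± 0.0571, adjusted p = 7.65e-08) and 1.93-fold below IWP2-treated EpiSCs (-0.95 ± 0.0571, adjusted p = 1.98e-07).

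Hey1, a HEY-family repressor, read 6.76, 7.08 and 7.01 with vehicle, 7.08, 7.22 and 6.98 with IWP2 and 5.62, 5.70 and 5.47 in ESCs. EpiSC groups overlapped, and every ESC array was lower than every EpiSC array. The IWP2 difference of 0.15 (95% interval -0.08 to 0.37) was not called (adjusted p = 0.305). ESCs were below vehicle EpiSCs by 2.55-fold (-1.35 ± 0.1, adjusted p = 1.07e-06) and below IWP2-treated EpiSCs by 2.82-fold (-1.50 ± 0.1, adjusted p = 4.47e-07).

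Hes5, a target known from neural progenitors, read 5.85, 5.58 and 5.73 with vehicle, 5.93, 6.03 and 5.88 with IWP2 and 5.93, 5.91 and 6.13 in ESCs. Vehicle arrays were the lowest by a small margin, and IWP2 and ESC arrays overlapped. The IWP2 difference of 0.23 ± 0.0875 (95% interval 0.03 to 0.42) was not called (adjusted p = 0.0758), though it was without vehicle replicate 1 (0.29, adjusted p = 0.0421) and among genes at or above the median signal (adjusted p = 0.0438). ESCs were higher than vehicle EpiSCs by 0.27 ± 0.0875 (1.2-fold, adjusted p = 0.0209). This call ended without vehicle replicate 2 (adjusted p = 0.0747) or ESC replicate 3 (0.0781) and as the mean of both probe sets (0.13, adjusted p = 0.0747), and the difference was 0.17 with an offset of 32. ESC minus IWP2 was 0.04 (95% interval -0.15 to 0.24, adjusted p = 0.683). The second Hes5 probe set lay near the floor at 3.40 to 3.46.

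Hes5 is shown with the bases before its start because it was the 1 gene of the 8 with a promoter in the RefSeq table whose window held TGGGAA, the core bound by RBPJ. The 250 bases before its RefSeq start lie at chr4:154960673-154960922 on the plus strand of GRCm38.p6, with the matches on either strand in capitals.
Hes5: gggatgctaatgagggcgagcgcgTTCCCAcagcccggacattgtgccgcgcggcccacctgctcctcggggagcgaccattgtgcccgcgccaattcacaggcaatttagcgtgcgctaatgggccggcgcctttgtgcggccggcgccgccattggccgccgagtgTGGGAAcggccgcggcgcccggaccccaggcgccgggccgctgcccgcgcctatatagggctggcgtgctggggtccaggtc
The reverse match begins 226 and the forward match 82 bases before the start. A TGGGAA core on either strand occurred in 21.6% of all promoter windows and before 24.1% of all genes with a window. At least 2 of them occurred in 2.77% of windows. Both Hes5 matches also fit the longer core GTGGGAA, which contains TGGGAA. That longer core occurred in 5.42% of windows, and 0.161% of windows held at least 2. An N box was present before Notch1, Notch2 and Notch3, 3 of the 8 genes, against 40.1% of all genes with a window. CTTTGA, a core bound by the Tcf/Lef factors of the Wnt pathway, was before 0 of the 8. On either strand it was before 15.8% of all genes with a window and in 13.8% of all windows. Jag1 and Dll3, the ligands that fell with IWP2, held none of the 3 motifs in this window. Absence from the window says only that these letters are not there. Hes1 and Hey1 are named only.

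Counted over the 10 genes, 4 were called for IWP2 minus vehicle, with Notch3 and Jag2 higher and Jag1 and Dll3 lower. Of all 18193 genes 33.5% were called in that comparison, 16.6% higher and 16.8% lower, so the count of 4 is close to the background. All 10 had a mean at or above the median of all values. When only such genes were tested, 6 of the 10 and 5845 of 11006 genes were called. The median difference of the 10 genes was 0.07, against 0.033 for all genes, and 0 of them changed by at least 2-fold (0.901% of all genes rose and 2.81% fell by that much). For ESC minus vehicle 9 were called, 3 higher (Notch1, Jag1 and Hes5) and 6 lower (Notch2, Notch3, Dll1, Dll3, Hes1 and Hey1), where 66.6% of all genes were called, 38.7% higher and 27.9% lower. The median of the 10 was -0.78, against 0.12 for all genes and -0.018 for genes at or above the median signal. By at least 2-fold, 5 of the 10 were lower, against 9.63% of all genes. For ESC minus IWP2, 9 were called, 2 higher and 7 lower, with 62.1% of all genes called, 35.2% higher and 26.9% lower. At 2-fold or more, 1 was higher (Jag1) and 3 were lower (Notch2, Notch3 and Hey1), against 7.87% and 9.4% of all genes. The median of the 10 was then -0.72, against 0.096 for all genes and -0.002 for genes at or above the median signal. At an adjusted p under 0.01 the counts of the 10 were 3, 7 and 9, against 21.4%, 53.3% and 51.3% of all genes for IWP2 minus vehicle, ESC minus vehicle and ESC minus IWP2. The comparisons of IWP2 and of ESCs with vehicle share the 3 vehicle arrays.

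**Figure D3:**
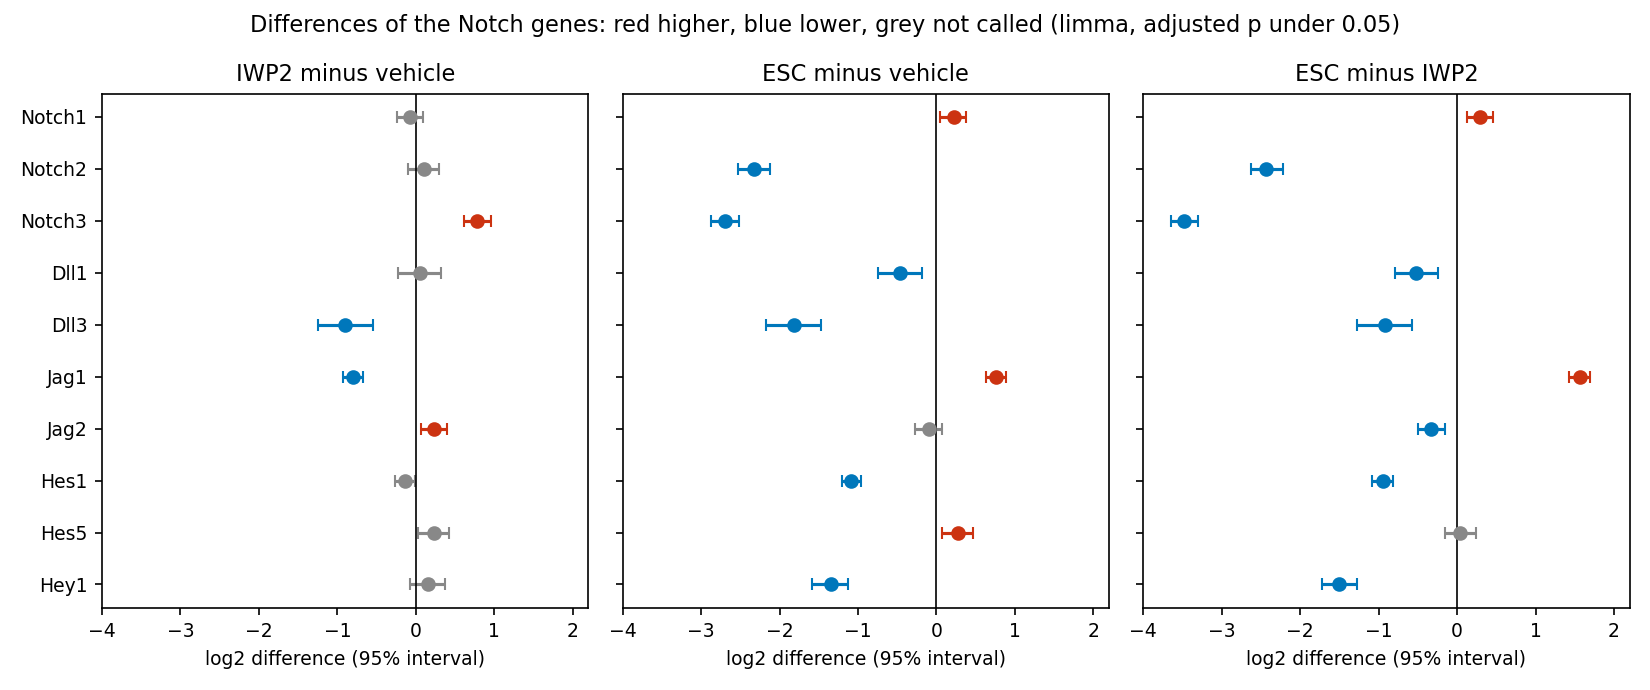
Log2 difference with its 95% interval (x axis) for each Notch gene (y axis) in the 3 comparisons, in red where called higher, blue where called lower and grey where not called by limma at an adjusted p under 0.05. With IWP2 the differences stay between -0.90 (Dll3) and 0.78 (Notch3), and in both comparisons with ESCs Notch2 and Notch3 lie below -2.

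Groups did not overlap for 6 of the 10 genes between IWP2 and vehicle (47% of all genes), for 9 between ESC and vehicle (71%) and for 9 between ESC and IWP2 (67.1%). Between IWP2 and vehicle, Hes1 and Hes5 were apart on all 6 arrays without passing the test across all genes. An exact permutation test of 3 against 3 arrays cannot give a two-sided p below 0.1.

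The rest of the pathway was read from 9 lists of 66 genes, of which 61 were measured. With IWP2, 13 of the 61 rose, 18 fell and 30 were not called, at a median of 0.03, where 16.6% of all genes rose and 16.8% fell. For ESC minus vehicle, 24 were higher, 21 lower and 16 not called, at a median of -0.03, against 38.7% higher and 27.9% lower of all genes. For ESC minus IWP2, 24 were higher, 20 lower and 17 not called, at a median of 0.16, against 35.2% and 26.9%. These shares of all genes are the background for each list count that follows, and no list was tested as a set. Dner was the 1 gene of the 61 that changed by at least 2-fold with IWP2, from a mean of 4.79 to 3.49, near the floor. Its difference was -0.46 with an offset of 32.

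**Figure D4:**
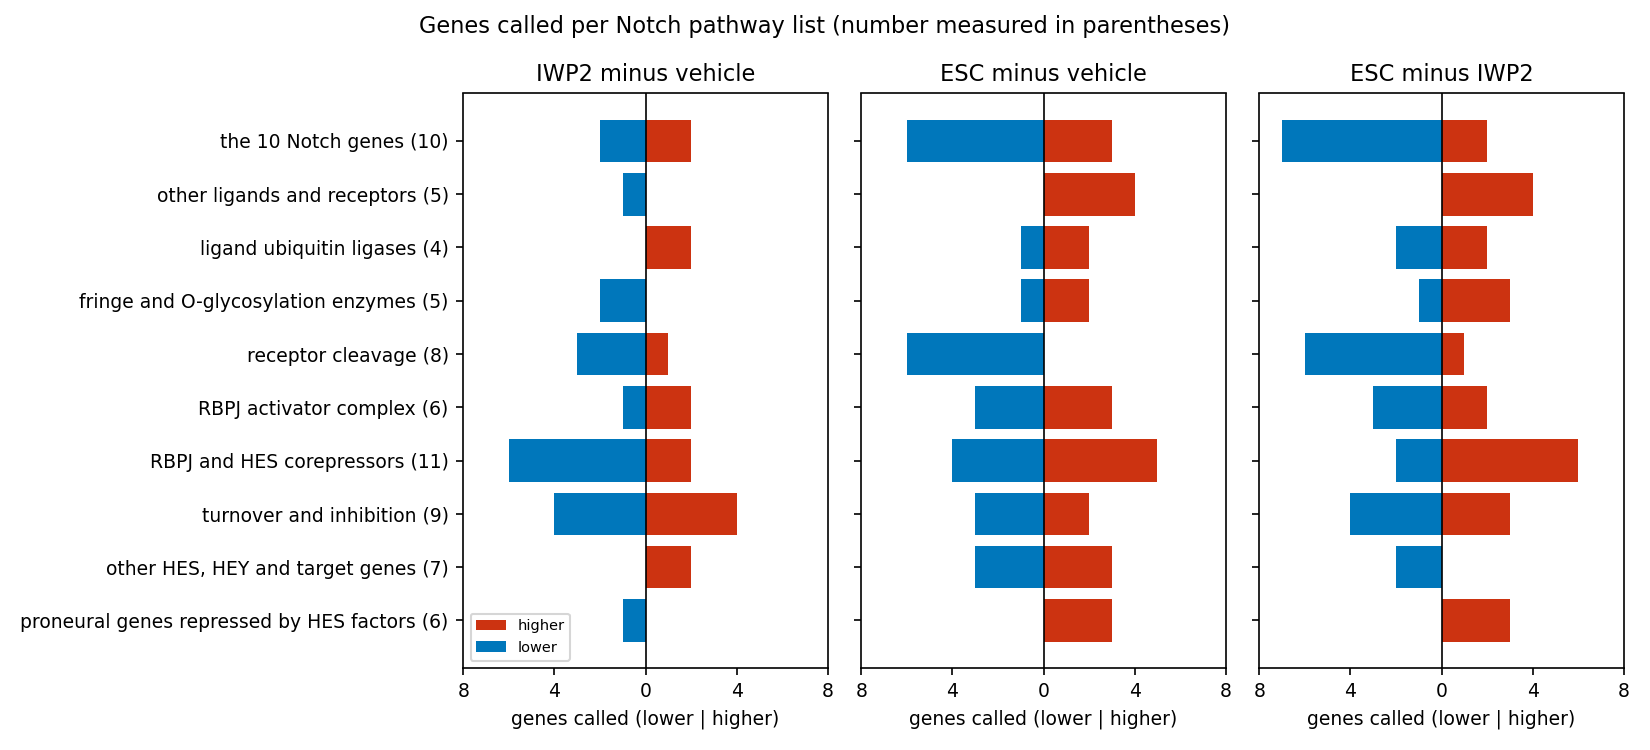
Number of genes called lower (blue, to the left) and higher (red, to the right) by limma in the 10 Notch genes and in each of the other pathway lists (y axis, number measured in parentheses) for the 3 comparisons. Receptor cleavage genes were lower in ESCs for 6 of 8 in both comparisons with ESCs, with 0 higher against vehicle and 1 higher against IWP2. Of all genes, 27.9% were lower and 38.7% higher against vehicle, and 26.9% lower and 35.2% higher against IWP2. Lists such as the corepressors went both ways.

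Among other ligands and receptors, 1 of 5 fell with IWP2, and 4 were higher and 0 lower in ESCs than in vehicle EpiSCs. Notch4, a receptor best known from endothelium, read 5.14, 5.39 and 4.99 with vehicle, 5.30, 5.11 and 4.93 with IWP2 and 7.63, 7.56 and 7.48 in ESCs. ESCs were thus above both EpiSC groups, by 2.38 ± 0.114 over vehicle (adjusted p = 3.92e-08), and by 1.06 as the mean of its probe sets. Of 7 endothelial markers, Cdh5, Tie1 and Emcn were below the lower quartile in every group. The summed signal of the 7 was 1119 to 1229 with vehicle, 211 to 221 with IWP2 and 258 to 286 in ESCs, most of it from Flt1 in the vehicle group (9.96 to 10.06 on the log2 scale). For ESC minus vehicle, 3 of the 7 were higher, namely Tek (3.33 to 5.72, a difference of 2.39, adjusted p = 5.79e-08), Esam (0.60, adjusted p = 0.0121) and Kdr (0.47, adjusted p = 0.00446), and Flt1 was lower (-4.65, adjusted p = 2.43e-09). Their part in the Notch4 difference was not tested. Dner, a noncanonical ligand of the nervous system, read 4.80, 4.92 and 4.64 with vehicle, 3.32, 3.52 and 3.63 with IWP2 and 5.53, 5.49 and 5.21 in ESCs. It fell with IWP2, with a difference of -1.30 ± 0.112 (adjusted p = 1.95e-05) that was -0.46 with an offset of 32. ESC arrays were the highest, above vehicle by 0.62 (adjusted p = 0.000755), by 0.32 with that offset and by 0.27 as the mean of its probe sets.

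Genes that modify ligands and receptors went both ways. Of 4 ubiquitin ligases that drive ligand endocytosis, 2 rose with IWP2, and for ESC minus vehicle Mib2 (0.48, adjusted p = 1.89e-05) and Neurl1a (0.40, adjusted p = 0.00717; 0.25 with an offset of 32 and 0.61 averaged over its probe sets) were higher and 1 was lower. Mib1, the main ligase for Delta and Jagged proteins, was that gene, at -0.69 (adjusted p = 2.61e-05), but averaging its probe sets gave 0.03 and no call (adjusted p = 0.699). Of 5 fringe and glycosylation genes, 2 fell with IWP2. Mfng, a fringe that changes which ligands a receptor prefers, differed by -0.51 ± 0.0631 (adjusted p = 0.000207). In ESCs Rfng (0.56, adjusted p = 2.99e-05) and Poglut1 (0.43, adjusted p = 0.000215) were higher than in vehicle EpiSCs and Pofut1 was lower (-0.50, adjusted p = 1.11e-05, and -0.21 as the mean of its probe sets).

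For ESC minus vehicle, 6 of the 8 receptor cleavage genes measured were lower and 0 higher, where 27.9% of all genes were lower and 38.7% higher. Psen2, a catalytic subunit of gamma-secretase, differed by -0.95 ± 0.0731 (adjusted p = 1.41e-06; -0.32 averaged over its probe sets) and Aph1b, another subunit, by -1.86 ± 0.208 (adjusted p = 2.45e-05; -1.20 with an offset of 32). With IWP2, 3 of the 8 fell and 1 rose. Adam10 and Adam17, the proteases of the cut outside the membrane, fell by 0.39 ± 0.08 (adjusted p = 0.00409) and by 0.34 ± 0.0687 (adjusted p = 0.00408), and Adam10 was at -0.22 as the mean of its probe sets.

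In the RBPJ activator complex, the genes for RBPJ and for the acetyltransferase Kat2b had the largest positive differences between ESCs and vehicle EpiSCs. Rbpj read 8.77, 8.67 and 8.85 with vehicle, 8.97, 8.95 and 8.96 with IWP2 and 10.43, 10.45 and 10.43 in ESCs. The ESC arrays were clearly the highest, by 1.67 ± 0.0575 over vehicle (adjusted p = 3.14e-09). The small rise with IWP2 (0.20 ± 0.0575, adjusted p = 0.0241) was not called without vehicle replicate 1 or 2 or without any 1 of the IWP2 replicates, and was 0.08 as the mean of its probe sets (adjusted p = 0.259). Kat2b rose with IWP2 by 0.45 ± 0.0504 (adjusted p = 0.000105) and was higher in ESCs than in vehicle EpiSCs by 2.17 ± 0.0504 (adjusted p = 2.1e-10). Of the 6 genes measured, 3 were higher and 3 lower in ESCs than with vehicle, among the former Maml2 by a small margin (0.26, adjusted p = 0.037; 0.07 and not called with an offset of 32) and among the latter Snw1 (-0.29, adjusted p = 0.00106).

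Corepressor genes gave 2 rises and 6 falls with IWP2 out of 11, and 5 higher and 4 lower for ESC minus vehicle. Groucho-family genes, whose products bind HES proteins, were among the falls. Tle1 fell by 0.58 (adjusted p = 5.71e-05; -0.25 averaged over its probe sets) and Tle2 by 0.60 at a level near the floor (adjusted p = 0.00114; -0.18 with an offset of 32). Hdac2 rose by 0.28 (adjusted p = 0.00198). In ESCs Tle4 (1.26, adjusted p = 1.07e-07) and the RBPJ corepressor gene Spen (0.95, adjusted p = 1.67e-06) were higher than with vehicle, and Ctbp1 was lower (-1.17, adjusted p = 1.19e-08).

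Turnover and inhibition genes went both ways, with 4 rises and 4 falls of 9 with IWP2 and 2 higher and 3 lower for ESC minus vehicle. Numb, an endocytic inhibitor of Notch, read 8.96, 8.90 and 9.03 with vehicle, 8.39, 8.53 and 8.53 with IWP2 and 7.93, 7.96 and 7.97 in ESCs. It stepped down without overlap, with -0.48 ± 0.0609 for IWP2 minus vehicle (adjusted p = 0.000259; -0.27 averaged over its probe sets) and -1.01 ± 0.0609 for ESC minus vehicle (adjusted p = 2.23e-07; -0.49 by that average). Dtx4, a Deltex ubiquitin ligase gene, read 8.07, 7.89 and 8.34 with vehicle, 8.98, 9.06 and 9.09 with IWP2 and 6.44, 6.74 and 6.90 in ESCs. The order of its groups was that of Notch3, with IWP2 highest and ESC lowest. Dtx4 rose with IWP2 by 0.95 ± 0.132 (adjusted p = 0.000461) and was lower in ESCs than with vehicle (-1.41 ± 0.132, adjusted p = 6.52e-06; -0.93 as the mean of its probe sets). Fbxw7, whose product marks the cut receptor for degradation, rose with IWP2 by 0.34 (adjusted p = 0.000807) and was higher in ESCs by 0.79 (adjusted p = 4.42e-07). Itch, another ligase gene, fell with IWP2 by 0.28 (adjusted p = 0.00556).

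Of 7 further HES, HEY and target genes, 2 rose and 0 fell with IWP2, and 3 were higher and 3 lower in ESCs than with vehicle. Hes6, an atypical HES gene that promotes neurogenesis and opposes Hes1, read 8.02, 8.10 and 8.12 with vehicle, 8.86, 8.90 and 8.86 with IWP2 and 6.86, 6.86 and 6.83 in ESCs. Its groups were apart on every array, IWP2 highest and ESC lowest, with a rise of 0.79 ± 0.0514 with IWP2 (adjusted p = 2.65e-06) and a difference of -1.23 ± 0.0514 for ESC minus vehicle (adjusted p = 1.38e-08). Nrarp, a feedback inhibitor that Notch induces, read 7.52, 7.67 and 7.60 with vehicle, 7.40, 7.29 and 7.25 with IWP2 and 6.00, 6.33 and 5.56 in ESCs. All IWP2 arrays were below all vehicle arrays, by a difference that was not called (-0.28, 95% interval -0.63 to 0.07, adjusted p = 0.201). Over 21 alternative settings the limma adjusted p of this difference ran from 0.0165 to 0.372, so its call depended on the setting. The SD of Nrarp was 0.0774 with vehicle, 0.0768 with IWP2 and 0.385 in ESCs, and the main fit pools the 3 groups. ESCs were 3.1-fold lower than vehicle EpiSCs (-1.63 ± 0.156, adjusted p = 7.45e-06), and the difference was -1.01 as the mean of the gene's probe sets. Hes2 was higher in ESCs by 0.48 (adjusted p = 0.00489) at a mean of 3.84, near the floor, and by 0.13 with an offset of 32.

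Proneural genes, which HES proteins repress, had group means from 2.35 (Neurod4) to 5.78 (Neurod1). Of 6 measured, 0 rose and 1 fell with IWP2, and 3 were higher and 0 lower in ESCs than with vehicle. Neurod1 fell by 0.52 ± 0.116 (adjusted p = 0.00672; -0.30 with an offset of 32). Neurog3 was higher in ESCs by 0.74 ± 0.111 (adjusted p = 0.000217) at a mean of 4.39, by 0.44 when its probe sets were averaged and by 0.25 with an offset of 32.

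Genes with the most similar pattern were sought for Dll3, which had the largest absolute difference of the 10 for IWP2 minus vehicle, and for Notch3, which had the largest for ESC minus vehicle, among 11917 others whose mean reached the median of all values (5.24) in at least 1 group. Likeness was the root mean square difference of log2 values centred for each gene, over the 9 arrays, and it describes the 3 groups more than independent points. Nearest to Dll3 were Rflnb (0.111), Igtp (0.134), Dap (0.148), Pfkfb3 (0.178) and Stk26 (0.181). Rflnb had means of 7.42, 6.49 and 5.50 for vehicle, IWP2 and ESC. Nearest to Notch3 were Ank3 (0.0802), Igdcc4 (0.103), Radil (0.114), Arap3 (0.124) and St6gal1 (0.125), with Ank3 at 9.07, 9.77 and 6.36. Ranked by Pearson correlation over the same arrays, 3 of the 5 genes were shared for Dll3 and 0 of the 5 for Notch3.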

How the data were processed

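The values are log2 signals as the authors deposited them, for 45101 probe sets on each of 9 arrays. RMA and limma, both without a version, appear in the submitters' processing notes, and array medians were 5.22 to 5.26. Such values carry no detection calls, and normalization between arrays hides a change of total RNA. Of the probe sets, 34945 had 1 gene symbol in the platform annotation, and the one with the highest mean stood for each of 18193 genes. Group means were fitted to all 9 arrays with limma 3.58.1 in R 4.3.3 (lmFit and eBayes, 6 residual degrees of freedom), two-sided, with Benjamini-Hochberg adjustment across all genes, separately by comparison. A difference is called where the adjusted p is under 0.05. The median SE of a difference was 0.0819, and 3 arrays per group limit the precision. Whether replicates came from separate lines is not given. The p-values set each difference against the spread between these cultures only, pooled over the 3 groups and moderated across genes by eBayes. The test was checked on simulated data. Promoter windows came from RefSeq (GRCm38.p6).

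The 10 genes and all lists were chosen with earlier results of these data known. All 10 were named, and of each other pathway list up to 2 called genes with the smallest p in each direction. Of those, genes that an alternative deprived of their call are mostly counted only, a choice made after the values were seen. Genes of similar pattern followed a fixed measure. Scan dates were not used here.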

Additional observations from a re-analysis of the deposited data

How the results depend on the processing

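Over 21 alternative settings, among them averaged or filtered probe sets, gene filters, normalizations and left-out arrays, 0 of the called differences of the 10 genes reversed. No setting let the other Notch2 probe set stand alone for the gene. That probe set was called in the opposite direction in both comparisons with ESCs. Of 210 values for IWP2 minus vehicle, 197 kept their side of the threshold, as did 200 of 210 for ESC minus vehicle and 209 of 210 for ESC minus IWP2. Leaving out arrays gave 3 to 4 of the 10 genes called for IWP2 minus vehicle, 7 to 9 for ESC minus vehicle and 9 for ESC minus IWP2. Samples with the same replicate number did not deviate together (correlations of -0.06 to 0.051, with 3 of 9 correlating best with their own number). With that number as a block the counts were 4, 9 and 9, and 5754 genes in all were called for IWP2 minus vehicle, against 6094. At an adjusted p under 0.01, 19 of the 31 other pathway genes and 3886 of all genes were called in that comparison. Among genes at or above the median signal, 6 of the 10 were called with IWP2, Hes1 and Hes5 being added, as were 5845 of all 11006 genes tested there. A filter on the group with the higher signal, added after the data had been seen, also gave 6, with 6089 of 11918 genes called. Of the other pathway genes called, 17 of 31, 31 of 45 and 35 of 44 were called in every setting that tested them. As the mean of their probe sets, Dtx1 for IWP2 minus vehicle moved from -0.34 to 0.00, and Mib1 for ESC minus vehicle from -0.69 to 0.03. What probes can show is limited near the floor, where signal is close to background.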
